A study of Mus musculus with 12 samples.

Results

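The subject here is a set of 47 miRNA probes that were brightest in adult mouse lung epithelium and lower in 3 other groups of mouse epithelial cells. They were chosen by their log2 values in the authors' deposited value table, which covers 2270 probes. A probe was taken when its mean over the 3 adult lung arrays was at least 0.8 above the highest of the other 3 group means, a step of 1.74-fold on the linear scale. The margin was met by 51 probes (2.25% of the table), and 4 of them, UCSF034_000547, UCSF034_000548, UCSF034_000552 and UCSF034_000556, were set aside by the rule. The adult lung values therefore chose the members, and everything said below about adult lung against the other groups is a description with no test.

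MicroRNAs are short RNAs that guide Argonaute proteins to partly matching messenger RNAs, which lowers the stability or the translation of those messages. Several of them are strongly enriched in single tissues or cell types. Many mammalian miRNAs are made from clustered genes that give one common precursor transcript, and others belong to families that share the seed, the stretch near the 5′ end that pairs with targets. On a hybridisation array, family members that differ by a base or so can bind the same probe.

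The study profiled 12 mouse samples, 1 per array, in 4 groups of 3: adult lung epithelial cells, adult mammary epithelial cells, and cells labelled reprogrammed lung and reprogrammed mammary epithelial cells. The adult donors were females 10 weeks old, and their epithelium was freed with trypsin and collagenase and enriched by repeated slow centrifugation, with no cell sort named. The labels give no strain, do not say whether replicates came from separate animals, and do not settle whether "reprogrammed lung" names the cells' origin or their fate. The p-values below therefore weigh differences against the spread of these samples alone, and that spread may be a technical one. The protocol describes cells mixed in Matrigel for transplantation, and which host cells remained in a reprogrammed sample is not given. The probes carry serial names only. None of the 47 could be matched to a miRNA name, so 0 members have a sequence, a role or a tissue marker function that could be given, and the labelled tissues could not be checked against marker miRNAs.

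Single-colour Agilent arrays report brightness, and their number rather than a read depth limits the precision. The scanner files gave background-subtracted signal, which was scaled so that all arrays had the same 75th percentile over the 631 probes that rose well above background on every one of the 12, and put on a log2 scale with a floor of 3.41. Before scaling, that percentile was 2278 to 2963 on adult lung arrays, 1335 to 1522 on those of adult mammary, 1267 to 1680 on those of reprogrammed lung and 805 to 867 on those of reprogrammed mammary. The number of probes well above background ran from 851 to 1006 in adult lung and from 700 to 773 in reprogrammed mammary. The adult lung arrays were thus the brightest and those of reprogrammed mammary the dimmest, and the part of this brightness in the member values was not tested. By the slide part of their identifiers, the arrays lay on 3 slides, and the labels name no batch. Adult lung replicates 1 and 2 were on slide 1 and replicate 3 on slide 2, with no adult lung array on slide 3. All 47 members had 6 or 7 spots per array and were among the 947 probes tested.

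The members stood above the other groups by moderate amounts. In the authors' values the margin ran from 0.80 to 2.10 with a median of 1.22, and 33 members reached 1, a doubling. Over all 2270 probes of that table the median margin was -0.04. On the scaled scanner signal the margin of the same members ran from 0.60 to 3.16 with a median of 1.44, against -0.40 over all tested probes. The margin stayed at 0.8 or more for 43 of the 47 on that scale. The 4 that fell under it were UCSF034_000458 (0.70), UCSF034_000459 (0.71), UCSF034_000479 (0.77) and UCSF034_001431 (0.60). In the authors' values the group that came second to adult lung was adult mammary for 21 members, reprogrammed lung for 12 and reprogrammed mammary for 14. On the scanner signal, adult lung exceeded each of the other groups by a like amount: the median difference was 1.58 to adult mammary, 1.54 to reprogrammed lung and 1.62 to reprogrammed mammary (log2). For 43 of the 47 in the authors' values, the lowest adult lung array lay above the highest of the other 9 arrays, a pattern that 7.36% of all table probes showed. On the scanner signal 38 members did so, against 13.3% of the 947 tested probes. Since the rule used the same values, nothing is read from these shares.

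A small number of members were measured only in adult lung. All 47 were well above background on all 3 adult lung arrays. In adult mammary 40 were well above background on all 3 arrays and 7 on none. In reprogrammed lung the figures were 40 on all, 2 on some and 5 on none, and in reprogrammed mammary 36 on all, 2 on some and 9 on none. In all, 36 members were measured on all 12 arrays. There were 5 measured on adult lung arrays and on no other array, UCSF034_000546, UCSF034_000554, UCSF034_001397, UCSF034_002083 and UCSF034_002527. Of the 947 tested probes, 631 were measured on all 12 arrays. The rule chose probes high in adult lung, whose arrays were also the brightest, so nothing is read from these counts.

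The widest margin in the authors' values, 2.10, was that of UCSF034_001397. Its log2 scaled signal was 6.33, 6.62 and 6.75 on the adult lung arrays and at the floor of 3.41 on the other 9. The 3 adult lung arrays were therefore high and nothing overlapped. Under this scaling and floor the other groups gave only a bound. The adult lung signal was at least 8.94-fold higher than in adult mammary and at least 8.96-fold higher than in reprogrammed lung. It was at least 6.10-fold higher than in reprogrammed mammary. These bounds set the adult lung mean against the lowest signal that was still well above background on the dim arrays, or the probe's own signal where that was higher. The reprogrammed mammary arrays, dimmer before scaling, had the higher such limit after it and hence the smaller bound. The bounds hold for this scaling and floor alone. The margin of this probe (log2) was 3.16 here, 2.10 in the authors' values and 0.39 after normexp background correction, described below. It was 3.29 to 3.93 in the other settings.

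UCSF034_000546 had much the same pattern, with 6.22, 6.42 and 6.46 on the adult lung arrays, the floor on every adult mammary and reprogrammed lung array, and 3.41, 3.41 and 3.64 on the reprogrammed mammary arrays. It was at least 7.77-fold higher in adult lung than in adult mammary, at least 7.79-fold higher than in reprogrammed lung and at least 5.30-fold higher than in reprogrammed mammary. For UCSF034_000554 the bounds were 5.14-fold, 5.15-fold and 3.51-fold in the same order. The bounds were smaller for UCSF034_002083 and UCSF034_002527: at least 3.09, 3.10 and 2.11-fold for the first, and at least 2.85, 2.84 and 1.94-fold for the second. UCSF034_000551 read 6.49, 6.62 and 6.69 on the adult lung arrays. It was at the floor on the adult mammary arrays, read 3.42, 3.50 and 4.09 on those of reprogrammed mammary without clearing background there, and read 3.41, 3.41 and 3.84 on the reprogrammed lung arrays, only some of which measured it. It was at least 9.13-fold higher in adult lung than in adult mammary and at least 6.22-fold higher than in reprogrammed mammary. These bounds too hold for this scaling and floor alone. For UCSF034_000546, UCSF034_000551, UCSF034_000554, UCSF034_002083 and UCSF034_002527 the authors' margins (log2) were 1.77, 1.79, 1.47, 1.19 and 0.80. After normexp they were 0.18, 0.29, -0.16, -0.51 and -0.66. With the other scalings tried they were larger than with the scaling used.

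The members measured on every array made up most of the set. Over these 36 the median adult lung excess was 1.504 over adult mammary, 1.34 over reprogrammed lung and 1.52 over reprogrammed mammary. UCSF034_001178 read 9.32, 9.53 and 9.62 on the adult lung arrays, a mean of 9.49 ± 0.15 (SD, n = 3). Its mean was 7.65 ± 0.24 over the adult mammary arrays, 7.68 ± 0.30 over those of reprogrammed lung and 7.76 ± 0.19 over those of reprogrammed mammary. The 3 lower groups lay within 1 SD of each other and none of their arrays rose above 7.93. Its serial neighbour UCSF034_001177 gave nearly the same numbers, with 9.28, 9.52 and 9.65 on the adult lung arrays and an adult lung excess of 1.80, 1.81 and 1.77 over adult mammary, reprogrammed lung and reprogrammed mammary. UCSF034_000802 read 11.73, 11.28 and 11.61 on the adult lung arrays. It read 9.72, 10.00 and 10.02 on the adult mammary arrays, 9.85, 9.83 and 10.18 on those of reprogrammed lung and 9.25, 9.66 and 10.27 on those of reprogrammed mammary. Its lowest adult lung array was still above all 9 others.

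The highest signals in adult lung came from UCSF034_000676, UCSF034_000678, UCSF034_000677, UCSF034_000507 and UCSF034_000513. Signal depends on the probe as well as on the miRNA, so this order is not one of miRNA levels. UCSF034_000507 read 13.67, 13.46 and 13.48 on the adult lung arrays. It read 12.24, 11.89 and 11.74 on the adult mammary arrays, 11.36 to 12.11 on those of reprogrammed lung and 11.62, 11.52 and 12.16 on those of reprogrammed mammary. The adult lung arrays were all above the rest, by 2.99-fold on the mean over adult mammary, 3.27-fold over reprogrammed lung and 3.40-fold over reprogrammed mammary. UCSF034_000513 had a smaller excess, with 12.54, 12.85 and 12.67 on the adult lung arrays and a highest value elsewhere of 12.07, on adult mammary replicate 1.

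UCSF034_000676 read 15.32, 15.49 and 15.19 on the adult lung arrays. It read 14.34, 13.69 and 13.04 on the adult mammary arrays, 14.20, 14.76 and 14.46 on those of reprogrammed lung and 13.69, 13.96 and 13.78 on those of reprogrammed mammary. No array of another group reached adult lung, and reprogrammed lung came second. UCSF034_000677 (14.76, 14.87 and 14.69 on the adult lung arrays) and UCSF034_000678 (14.91, 15.04 and 14.84) had the same order, with reprogrammed lung second on the group means. The adult lung excess of UCSF034_000677 was 1.79 over adult mammary, 1.16 over reprogrammed lung and 2.09 over reprogrammed mammary.

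Many members carried adjacent serial names. Of the 47, 29 fell into 11 runs of consecutive names, 8 of 2 probes, 2 of 3 and 1 of 7, and 18 had no member next to them. Over the 18 pairs of neighbours the margins differed by a median of 0.14 in the authors' values. The files do not say what neighbouring names share, so neighbours may measure the same or related miRNAs and are not independent members. The longest run was UCSF034_000503 to UCSF034_000509, with authors' margins from 0.85 to 1.56. The probe before it, UCSF034_000502, had a margin of -0.07, and the one after it, UCSF034_000510, missed the rule at 0.76. Within that run UCSF034_000509 had the widest margin. It read 10.15, 9.93 and 9.88 on the adult lung arrays, 8.93, 8.38 and 8.19 on the adult mammary arrays, 7.54, 8.60 and 8.85 on those of reprogrammed lung and 8.20, 8.09 and 8.80 on those of reprogrammed mammary, with no overlap. The run UCSF034_000676 to UCSF034_000678 had margins of 1.06 to 1.22, and the probes on either side of it had margins of -0.35 and 0.02.

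In some shorter runs the neighbours read alike, and in others they did not. UCSF034_001115 (8.28, 8.59 and 8.53 on the adult lung arrays) and UCSF034_001116 (8.43, 8.62 and 8.60) had margins of 1.48 and 1.45, and neither exceeded 7.20 on any other array. UCSF034_000806 and UCSF034_000807 were close to each other in the same way, and both overlapped adult lung on 1 array, reprogrammed mammary replicate 4, at 8.17 and 8.23 against 8.12 on adult lung replicate 2. UCSF034_000803, next to UCSF034_000802, read 7.05, 6.85 and 7.11 on the adult lung arrays and stood above the other groups by 5.05-fold, 4.79-fold and 5.45-fold over adult mammary, reprogrammed lung and reprogrammed mammary. In the run UCSF034_001512 to UCSF034_001514 the margins were 0.82 to 0.86. Of that run UCSF034_001513 cleared background on all 12 arrays, at 5.91, 6.35 and 6.33 in adult lung and at no more than 5.17 elsewhere. Under this scaling and floor UCSF034_001512 was at least 2.85-fold higher in adult lung than in adult mammary.

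The stretch UCSF034_000546 to UCSF034_000556 held 3 members, UCSF034_000546, UCSF034_000551 and UCSF034_000554, among the 4 probes that the rule set aside. Those 4 had the widest margins there, 3.04 for UCSF034_000547, 3.22 for UCSF034_000548, 2.99 for UCSF034_000552 and 3.01 for UCSF034_000556. The remaining 4 were below the rule: UCSF034_000549 at 0.79, UCSF034_000550 at 0.35, UCSF034_000553 at -0.08 and UCSF034_000555 at 0.36. So 7 of 11 consecutive names met the margin, and 4 between them did not.

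Around the threshold the members shaded into the other probes. The 3 just inside it were UCSF034_002527 (0.80), UCSF034_000459 (0.81) and UCSF034_000458 (0.81), and the 3 just outside were UCSF034_000549 (0.79), UCSF034_000518 (0.78) and UCSF034_001288 (0.77). When each of the 12 arrays was left out in turn, the rule took from 39 to 53 probes, and 32 of the 47 members met it every time. Without adult lung replicate 2 it took 39 probes, 38 of them members.

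Spread within groups set a few members apart. Over the 36 members measured on all 12 arrays the median SD (log2) was 0.16 among adult lung arrays, 0.36 among adult mammary arrays, 0.33 among those of reprogrammed lung and 0.35 among those of reprogrammed mammary, and over all probes measured on all 12 arrays it was 0.22, 0.35, 0.37 and 0.30. The 9 arrays outside adult lung spanned a median of 1.07 for these members and 1.36 for all such probes. The rule itself favours a smaller span, since a probe high in any other group was less likely to meet the margin. There were 6 members whose 9 other arrays spanned more than 2 log2 units: UCSF034_000761 (4.53), UCSF034_001305 (3.75), UCSF034_001304 (3.41), UCSF034_002524 (2.69), UCSF034_000496 (2.23) and UCSF034_000504 (2.14).

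UCSF034_000761 was steady in adult lung, at 10.70, 10.60 and 10.72. It read 6.32, 7.36 and 8.68 on the adult mammary arrays, 10.86, 9.11 and 6.42 on those of reprogrammed lung and 6.89, 10.15 and 6.64 on those of reprogrammed mammary. Reprogrammed lung replicate 1 was thus as high as adult lung while replicate 3 of that group was near the lowest array. The margin on scanner signal was 1.88, and it became 2.78 without reprogrammed lung replicate 1 and 0.69 without replicate 3. UCSF034_000770, which is not a neighbour by serial name, had high and low arrays in the same places: 7.55, 7.89 and 7.57 on the adult lung arrays, 3.64, 4.57 and 5.57 on the adult mammary arrays, 7.86, 5.77 and 3.55 on those of reprogrammed lung and 4.46, 7.01 and 4.25 on those of reprogrammed mammary. For both probes the 3 slide 1 arrays outside adult lung (replicate 1 of adult mammary, replicate 3 of reprogrammed lung, replicate 4 of reprogrammed mammary) were the lowest of their groups, while the 2 adult lung arrays of that slide were not low. The margin of UCSF034_000770 was 1.94, and 0.85 without reprogrammed lung replicate 3. The part of the slide in this spread was not tested.

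UCSF034_001304 and UCSF034_001305 varied inside adult lung itself. UCSF034_001304 read 8.62, 12.85 and 12.93 there, 9.33, 9.91 and 7.87 on the adult mammary arrays, 11.29, 10.02 and 7.94 on those of reprogrammed lung and 11.12, 10.30 and 9.12 on those of reprogrammed mammary. Adult lung replicate 1 lay below most arrays of the other groups, so the margin of 1.29 rested on adult lung replicates 2 and 3. It was 2.71 without replicate 1, 0.59 without replicate 2 and 0.56 without replicate 3. UCSF034_001305 read 7.85, 12.13 and 12.01 on the adult lung arrays, and its margin of 1.65 became 3.06 without replicate 1, 0.92 without replicate 2 and 0.98 without replicate 3. Arrays of the other groups moved both probes too: without reprogrammed lung replicate 3 the margins were 0.81 for UCSF034_001304 and 0.86 for UCSF034_001305, and without reprogrammed mammary replicate 4 they were 0.76 and 1.098.

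UCSF034_001138 differed in adult mammary. It read 7.43, 7.85 and 7.81 on the adult lung arrays, 4.94, 6.32 and 3.58 on the adult mammary arrays, 3.83, 4.50 and 4.20 on those of reprogrammed lung and 3.74, 3.83 and 3.85 on those of reprogrammed mammary. Adult lung was high on all 3 arrays, adult mammary was intermediate and uneven, and both reprogrammed groups were low. On the scaled signal its adult lung mean was 6.74-fold above that of adult mammary and 11.5-fold above that of reprogrammed lung. Under this scaling and floor it was at least 13.4-fold above reprogrammed mammary, where no array was well above background. The excess over adult mammary, 2.75 on the log2 scale, was 2.07 without adult mammary replicate 4 and 3.44 without replicate 2.

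The members' adult lung values can also be given slide by slide, again as a description, since the rule used these arrays. On slide 1 the mean of the 2 adult lung arrays, and on slide 2 the 1 adult lung array, lay above the highest other array of the slide for all 47, as for 31.4% and 29.6% of all tested probes. The median of that excess was 1.13 on slide 1 and 1.21 on slide 2, and it was at least 0.8 for 34 and 35 members, against 6.12% and 8.87% of all tested probes. The lowest values were 0.04 for UCSF034_000807 on slide 1 and 0.43 for UCSF034_000676 on slide 2. Slide 3 held no adult lung array and gave no value.

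The 3 groups outside adult lung were compared with each other by a test, in which the difference itself holds no adult lung array. Adult lung arrays still entered the estimate of the spread, which was pooled over all 12 arrays. Through the scaling, the floor and the choice of probes tested, they entered as well. The rule used the means of these 3 groups too, since it took the highest of them. The comparisons are therefore not wholly independent of it, and they share arrays with each other. A probe high in any of these groups was less likely to meet the margin, so the rule favours small differences among them. Contrasts below between members and all tested probes, in change, p-values, overlap and intervals, are in part set by this choice. Nothing is read from those contrasts. The comparisons ask whether the members' level in reprogrammed cells differed from that in adult mammary cells, and whether it differed between the 2 reprogrammed groups. The test was limma, with Benjamini-Hochberg adjustment over 947 probes at 0.05. The 5 members measured on adult lung arrays alone entered it only through those arrays and lay at or near the floor elsewhere, so they could not pass. UCSF034_000551 and UCSF034_001512 also entered only through adult lung. Elsewhere only some reprogrammed lung arrays measured them, fewer than the 3 arrays a probe needed to be tested. Counts over all members include these probes. Counts are therefore given first over the members measured on all 6 arrays of a comparison, beside all tested probes measured on the same 6.

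Between reprogrammed mammary and adult mammary, 0 of 36 such members passed, against 9.76% of all such probes, and 3 had an unadjusted limma p under 0.05, against 27.1%. The lowest adjusted p was 0.121. On the values, 17 were higher and 19 lower, with a median change of -0.03. The median size of the change, whatever its sign, was 0.19 against 0.38 over all such probes. The 3 arrays of one group lay apart from the 3 of the other for 2 members, against 30.5%. With the dimmer members counted as well, 0 of 47 passed, against 8.98% of the 947 probes.

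Between reprogrammed lung and adult mammary, 0 of 40 such members passed, against 3.06% of all such probes, with 3 at an unadjusted limma p under 0.05 against 20.0% and a lowest adjusted p of 0.116. Here 22 were higher and 18 lower, with a median change of 0.02. The median size was 0.16 against 0.29, and the arrays lay apart for 0 members against 20.1%. Over all 47 members 0 passed, against 4.33% of the 947 probes.

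Between reprogrammed mammary and reprogrammed lung, 0 of 36 such members passed, against 0.152% of all such probes, so the background itself was near 0. An unadjusted limma p under 0.05 was found for 5 members, against 18.8%, and the lowest adjusted p was 0.130. There were 21 higher and 15 lower, with a median change of 0.02 and a median size of 0.22 against 0.34. The arrays lay apart for 8 members, against 19.3%. Over all 47 members 0 passed, against 0.211% of the 947 probes.

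A p that misses the threshold does not show equal levels, and the intervals give what could be told apart. The median member's 95% interval, not adjusted for the number of probes, reached 0.57 to each side. Among members measured on all 6 arrays of a comparison, the interval lay within a 2-fold change either way for 26 of 36 (72.2%) between reprogrammed and adult mammary, for 28 of 40 (70.0%) between reprogrammed lung and adult mammary, and for 23 of 36 (63.9%) between the reprogrammed groups. Over all tested probes measured on all 6 arrays those shares were 42.8%, 50.4% and 48.3%. Whether any member passed depended on the scaling or background correction in both comparisons with reprogrammed mammary. With no scaling, where the dimmer reprogrammed mammary arrays keep their lower brightness, 20 members passed as lower than in adult mammary (27.1% of all tested probes) and 25 as lower than in reprogrammed lung (36.6%). With normexp background correction 15 passed as higher than in adult mammary (48.3% of all), and 17 passed against reprogrammed lung in either direction (49.0%). With adult mammary replicate 4 left out 1 member, UCSF034_001138, passed as lower in reprogrammed than in adult mammary (7.29% of all).

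The widest intervals were those of the probes with uneven arrays: the change of UCSF034_000761 from adult mammary to reprogrammed lung was 1.34 with an interval of -1.34 to 4.03, and that of UCSF034_001304 from adult to reprogrammed mammary was 1.14 with an interval of -1.65 to 3.93.

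The members with an unadjusted limma p under 0.05, named after their values were seen, included the run UCSF034_000676 to UCSF034_000678. UCSF034_000677 read 13.46, 13.96 and 13.42 on the arrays of reprogrammed lung and 12.69, 12.77 and 12.59 on those of reprogrammed mammary. The 2 groups did not overlap, with a difference of -0.93 ± 0.29 (SE) and an interval of -1.58 to -0.29, and the limma adjusted p was 0.130. Within slides the difference was -0.83, -1.20 and -0.77. For UCSF034_000678 it was -0.85 ± 0.29 (limma adjusted p = 0.158) and for UCSF034_000676 it was -0.66 ± 0.29 (limma adjusted p = 0.250). UCSF034_000677 and UCSF034_000678 passed as lower in reprogrammed mammary both with no scaling and with normexp (limma adjusted p = 0.0126 and 0.0215 with normexp). Of all tested probes, 36.6% passed as lower with no scaling and 49.0% passed in either direction with normexp. Against adult mammary, reprogrammed lung was at 0.78 ± 0.29 for UCSF034_000676 (limma adjusted p = 0.142), with within-slide differences of 0.11, 1.72 and 0.51.

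UCSF034_000618 was lowest in reprogrammed lung. It read 7.63, 7.48 and 7.35 on the adult lung arrays, 6.10, 5.53 and 5.90 on the adult mammary arrays, 5.08, 5.54 and 5.40 on those of reprogrammed lung and 5.83, 5.97 and 5.78 on those of reprogrammed mammary. The adult lung arrays were all above the rest, and reprogrammed lung had a difference of -0.50 ± 0.17 from adult mammary (limma adjusted p = 0.116). Reprogrammed mammary was 0.52 ± 0.17 above reprogrammed lung (limma adjusted p = 0.147), and this sign turned under no scaling (-0.33). UCSF034_001431 had the lowest adjusted p between reprogrammed and adult mammary, with 8.81, 8.45 and 8.54 against 7.95, 8.24 and 7.68, a difference of 0.65 ± 0.23 (limma adjusted p = 0.121) that was -0.11 under no scaling. UCSF034_000505 read 7.27, 7.63 and 6.56 in reprogrammed mammary, with differences of -0.80 ± 0.35 from adult mammary (limma adjusted p = 0.194) and -0.89 ± 0.35 from reprogrammed lung (limma adjusted p = 0.216). UCSF034_000496 read 5.59, 5.86 and 4.71 in reprogrammed mammary against 6.88, 5.91 and 6.36 in adult mammary, a difference of -0.996 ± 0.42 (limma adjusted p = 0.171) that vanished to 0.00082 under normexp.

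How the arrays were brought to one scale mattered for the size of the adult lung excess. The members' median margin was 1.74 with the 75th percentile taken over all probes, 1.60 after quantile normalization, 2.28 with no scaling and 0.69 after normexp background correction, which adds an offset of 50 to each signal. The median over all tested probes moved with it, being -0.18, -0.20, 0.27 and -1.02 in the same settings. The margin of 0.8 was reached by 47, 46, 47 and 21 members, while 96, 74, 222 and 27 probes of the authors' table reached it in all, against 60 with the scaling used here. After normexp 8 members had an adult lung mean below another group: UCSF034_000503, UCSF034_000506, UCSF034_000554, UCSF034_001512, UCSF034_001513, UCSF034_001514, UCSF034_002083 and UCSF034_002527. In that setting the offset, once scaled, stood at 4.66 to 5.04 log2 units on adult lung arrays and at 6.36 to 6.45 on reprogrammed mammary arrays, so dim probes took a higher floor on the dimmer arrays by construction. The other 39 stayed above all 3 groups in each of the 6 processings.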

How the data were processed

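Cy3-labelled miRNA was hybridised to custom Agilent arrays, per the labels' protocols. The deposited scanner files hold spot intensity, background-subtracted by Feature Extraction 10.5.1.1, per the file headers (the submitters' processing notes name 10.1). The authors' value table holds log2 values for 2270 probes. Each column correlated best with its own array's log2 median spot signal (r from 0.996 to 1.000), so its direction is known. Its scaling method is not stated in any source at hand. Column medians were 4.97 to 5.00. Reprogrammed lung replicate 3 lacks headers and is rounded to 3 digits.

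From the scanner files, outlier spots (164 to 345 per array) were left out, except 1 probe on 1 array with no other spots, signal was scaled by the 75th percentile over 631 probes, floored at 10.6 (5th percentile), logged and averaged over spots. A probe was tested when well above background on at least 3 arrays. limma 3.58.1 (R 4.3.3) was fitted with 4 group means to all 12 arrays, and the same fit was also run on simulated data. The other settings tried were scaling, normexp (on median spot signal), the filter, slide, replicate number and each array left out. Probes named were the 10 widest margins, those nearest the threshold, the 5 brightest, any called, and the runs UCSF034_000503 to UCSF034_000509 and UCSF034_000676 to UCSF034_000678; others were chosen after their values were seen. The members and lists were chosen with earlier results of these data known.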

Additional observations from a re-analysis of the deposited data

Results flagged for a closer look

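The authors' table leaves out 309 probes of the array that the scanner files hold, and a like pattern appeared among them. On the scaled scanner signal, 21 of the 309 had an adult lung mean at least 0.8 above the other 3 group means, with margins from 0.81 to 1.52 and a median of 1.09. For 18 of the 21 the adult lung arrays did not overlap the other 9, against 13.3% of the 947 tested probes. The 21 were chosen by these same values, so nothing is read from that. Of the 309, 193 were well above background on 3 or more arrays. Apart from UCSF034_000027, the 21 lay between UCSF034_000202 and UCSF034_000216 or between UCSF034_000288 and UCSF034_000309. Such near neighbours may not be separate cases. UCSF034_000027, with 5 spots, had the widest margin of 1.52, and the other 20 had 1 spot each, so their values have no average over spots. They stand outside the members because the rule was applied to the table only.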

How the results depend on the processing

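Of the members, 0 passed between reprogrammed lung and adult mammary in every setting run. Between reprogrammed and adult mammary, 20 passed with no scaling, all lower, and 15 with normexp, all higher, where 27.1% and 48.3% of all tested probes passed in that direction. The members' median change was then -0.70 and 0.28, against -0.58 and 0.44 over all tested probes. Between the reprogrammed groups, 25 passed with no scaling, all lower (36.6% of all), and 17 with normexp, 15 higher and 2 lower (49.0%), with medians of -0.81 and 0.31 against -0.69 and 0.48. Leaving out 1 array in turn gave 0 to 1 members passing between reprogrammed and adult mammary: without adult mammary replicate 4, UCSF034_001138 passed (-1.83, limma adjusted p = 0.0303). The median change was then -0.08 to 0.03, and -0.17 to 0.047 between the reprogrammed groups, the lowest without reprogrammed lung replicate 1. On scanner values 21 members met the margin under normexp, against 43, and 40 to 45 with 1 array left out. A margin of 0.5 would take 97 probes. Signs turned for UCSF034_000496 (0.00082 under normexp, between reprogrammed and adult mammary), and, under no scaling, for UCSF034_001431 (-0.11) and UCSF034_000618 (-0.33). The cause was not tested. With the replicate number as a replicate block, 0 members passed in each comparison. Over all pairs of different groups, samples of 1 number did not deviate together (r from -0.45 to 0.27, median -0.04). These pairs mixed lung with mammary samples, so they cannot settle whether adult and reprogrammed samples of 1 number were paired. Both mammary groups are numbered 1, 2 and 4, and both lung groups 1, 2 and 3. The slide as a block also gave 0. With 3 arrays a group, few spots and unknown probe identities, small differences could not be told from 0. For the median member the limit was about 0.57 by the unadjusted 95% interval, and the adjusted threshold asked for more.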
